A study of Xenopus laevis with 18 samples.

Results

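The Meis, Pbx and Pknox genes encode homeodomain proteins of the TALE class, which bind DNA together with Hox proteins. Members were the probe sets whose single gene symbol in the array annotation was a Meis, Pbx or Pknox gene of Xenopus laevis. They numbered 11 of the 32475 probe sets tested and covered 6 of the 11303 genes with a symbol: meis1.S (2 probe sets), meis2.L (1), meis3.L (2), meis3.S (1), pbx2.L (4) and pknox1.L (1). The endings .L and .S name the homeologs, the copies of a gene on the long and the short subgenome of this allotetraploid frog. A further probe set that carries both meis3 symbols was kept outside the members and is given once beside them.

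RNA came from explants of the lateral marginal zone, the flank of the gastrula from which lateral mesoderm and the pronephric kidney field arise. All embryos had received mRNA for the fluorescent protein GFP in every blastomere at the 4-cell stage, and those labelled RA-depleted had in addition received mRNA for cyp26, whose protein oxidizes and so inactivates retinoic acid (RA). Explants of both arms were cut at early gastrula. They were collected after 1 h in culture as early gastrula samples and after 3 h as mid-gastrula ones, both at 20 °C, and after a night at 14 °C as early neurula ones. The 18 arrays made 6 groups of 3 that the labels call biological replicates. The labels give neither the cyp26 gene or species injected nor what samples with one replicate number share. Values are log2 probe set intensities, and precision is limited by there being 3 arrays in a group. The title asks which genes of lateral mesoderm respond to RA.

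Meis and Pknox proteins bind Pbx proteins and, with or without a Hox protein, occupy DNA as dimers or trimers. Meis proteins raise the nuclear retention and the activity of Pbx and Hox partners, and Pknox1 shares the Pbx partner. In Xenopus, meis3 is known as a regulator of the hindbrain and posterior neural plate, where anterior Hox genes are its targets, and meis genes are known to respond to RA in several vertebrate tissues.

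A check of the arm labels came before the results. The probe set Xl2.456.1.S1_at of cyp26a1.S gave lower values with the RA-depleted label in 9 of 9 same-numbered pairs, and its log2 differences at the successive stages were -4.79, -5.34 and -4.14. The dimmer Xl2.50113.2.A1_a_at of the same gene, the cyp26a1.L probe set and that of dhrs3.L, a retinal reductase gene, were higher in 9 of 9 pairs. The log2 differences of dhrs3.L were 0.64, 1.47 and 2.98 at the successive stages, and those of cyp26a1.L were 1.82, 1.99 and 1.53. Whether Xl2.456.1.S1_at reads the injected mRNA was not tested. Only if it does would its lower values go against an arm given cyp26 mRNA. Both cyp26a1 and dhrs3 are also among the genes known to respond to RA that are listed below. The higher values of cyp26a1.L and dhrs3.L thus bear on the labels whatever Xl2.456.1.S1_at reads. Which arm held less RA was not tested. Groups are therefore named by their labels throughout, and every sign between the arms below would turn if the labels were exchanged.

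The largest arm difference of any member belonged to meis3.L. On its bright probe set (Xl2.452.2.S1_at) the early neurula arrays labelled control read 7.35, 6.42 and 7.83 in the order of their replicate numbers, and those labelled RA-depleted read 8.70, 8.40 and 9.15. All 3 arrays labelled RA-depleted lay above all 3 labelled control. At mid-gastrula the arrays labelled control read 7.51, 6.92 and 6.95, and those labelled RA-depleted read 8.42, 7.85 and 8.06, again without overlap. At early gastrula the readings were 4.27, 4.97 and 4.49 against 4.51, 5.51 and 5.02, and the groups overlapped. The array labelled RA-depleted was the higher in 9 of 9 same-numbered pairs. The pairs differed by 0.23 to 0.54 at early gastrula. The mid-gastrula pairs differed by 0.91 to 1.11, and those of early neurula by 1.33 to 1.98.

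The group means of meis3.L at early neurula were 7.20 ± 0.71 (SD, n = 3) in explants labelled control and 8.75 ± 0.38 in explants labelled RA-depleted, a log2 difference of 1.55 (SE 0.34, 95% interval 0.83 to 2.27) or 2.93-fold. This difference gave an adjusted p of 0.0702 in limma's moderated test with Benjamini-Hochberg adjustment over all probe sets, and so it missed the threshold of 0.05. With the replicate number as a block the adjusted p was 0.0403, and with each same-numbered pair of a stage as a block it was 5.82e-05. That last value rests on a spread pooled over the stages. The SD of the differences within pairs was 0.37 at early neurula and 0.11 at mid-gastrula. With the pairs of early neurula alone, a fit added after the data had been seen, the adjusted p was 0.0234. Without the third early neurula array labelled control, which had the highest reading of its group, the difference was 1.86 and the adjusted p 0.0215 with no block. Leaving out that array had to widen the difference. Without the second, which had the lowest reading, the difference was 1.16. The second array labelled control was also the lowest of its group for the other meis3.L probe set, meis3.S and meis2.L. Over the 16 alternative fits the difference ranged from 1.16 to 1.86 and the adjusted p from 5.82e-05 to 0.705. At mid-gastrula the means were 7.13 ± 0.33 and 8.11 ± 0.29, a difference of 0.99 (SE 0.34) with an adjusted p of 1.00 without a block, 0.820 with the number as block and 0.0141 with the pair as block. At early gastrula the difference was 0.43 (SE 0.34), and its adjusted p was 0.352 with the pair as block. Averaged over the 3 stages the difference was 0.99 (SE 0.19), with adjusted p values of 0.0836, 0.0414 and 8.95e-05 in the same order of fits.

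**Figure D1:**
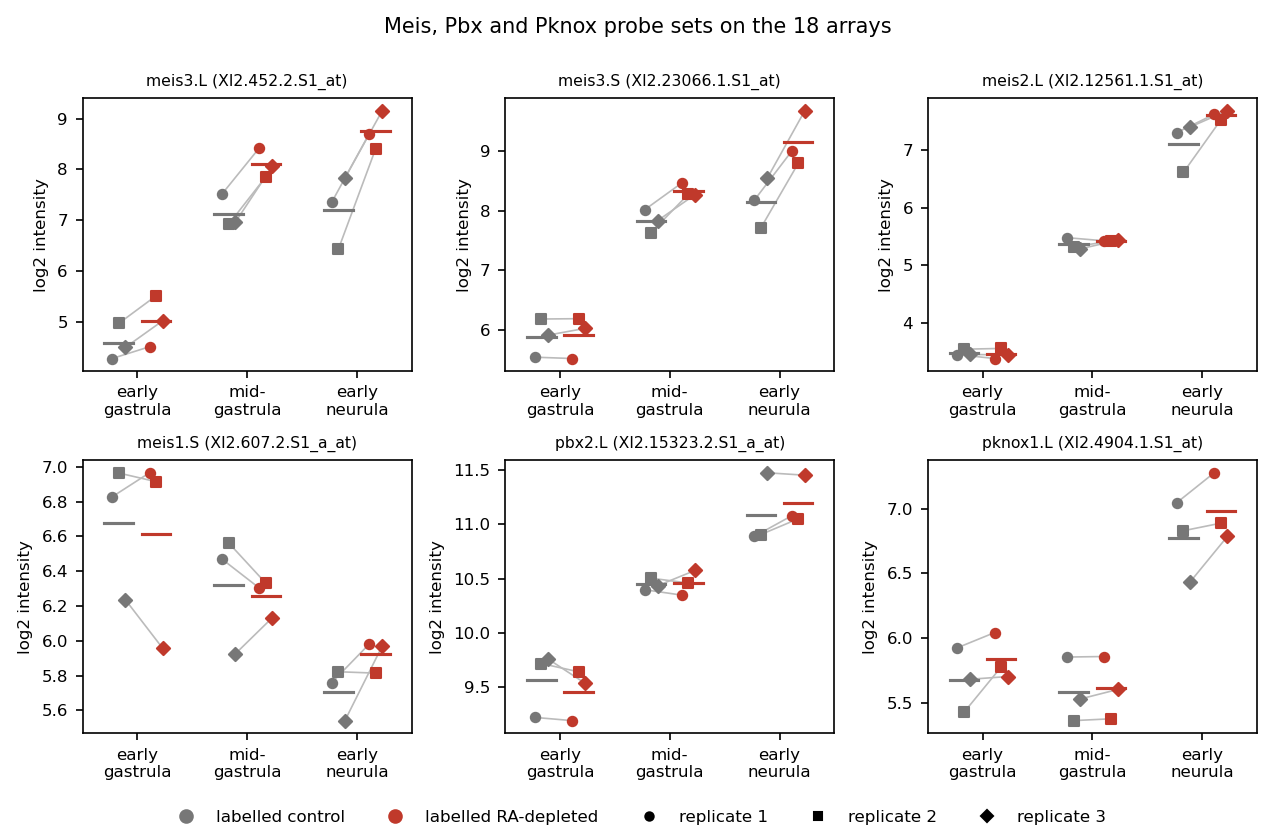
log2 intensity of the 6 genes on the 18 arrays, each gene by its probe set with the highest mean. Grey is labelled control and red labelled RA-depleted, shapes give the replicate number, thin lines join same-numbered arrays and short bars are means of 3 arrays. For meis3.L and meis3.S every red point at mid-gastrula and early neurula lies above every grey point of that stage.

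The dimmer probe set of meis3.L (Xl2.452.1.S1_a_at) differed the same way over a smaller range. At early neurula it read 4.84, 4.50 and 5.03 in explants labelled control and 5.47, 5.28 and 5.64 in explants labelled RA-depleted, with no overlap. The difference was 0.67 (SE 0.14), with adjusted p values of 0.0520 without a block, 0.0113 with the number and 0.00128 with the pair as block. The unblocked p passed without the second array labelled RA-depleted (0.0436) or without the third labelled control (0.0215), and with a trended and robust variance (0.0492). Those arrays held the lowest reading labelled RA-depleted and the highest labelled control, so leaving out either had to widen the difference. Without the second array labelled control, the lowest of its group, the difference was 0.53, the smallest of any fit. Over the 15 alternative fits the highest adjusted p was 0.705. At mid-gastrula it read 4.49, 4.25 and 4.38 against 4.82, 4.53 and 4.91, a difference of 0.38 (SE 0.14) that missed the threshold in every fit (adjusted p = 0.118 with the pair as block). At early gastrula its readings lay between 3.94 and 4.23 on all 6 arrays and the groups overlapped.

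The other homeolog, meis3.S, had the second largest arm difference among the genes. Its probe set (Xl2.23066.1.S1_at) read 8.17, 7.71 and 8.55 at early neurula in explants labelled control and 8.99, 8.79 and 9.67 in explants labelled RA-depleted, and each pair differed by 0.82 to 1.12. At mid-gastrula the arrays labelled control read 8.01, 7.63 and 7.83 and those labelled RA-depleted 8.46, 8.28 and 8.27. The arms did not overlap at either stage. At early gastrula the readings were 5.55, 6.19 and 5.92 against 5.53, 6.20 and 6.03, with a difference of 0.03 (SE 0.25). Over all stages the array labelled RA-depleted was higher in 8 of 9 pairs.

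The means of meis3.S at early neurula were 8.14 ± 0.42 and 9.15 ± 0.46 (SD, n = 3 each), a log2 difference of 1.01 (SE 0.25) or 2.01-fold. Its adjusted p was 0.140 without a block, 0.0551 with the number as block and 4.23e-05 with the pair as block. Over the 16 alternative fits it ranged from 4.23e-05 to 0.870. The same-numbered arrays of both arms moved together: the SD of the pair means at early neurula was 0.43, and the SD of the differences within pairs was 0.16. At mid-gastrula the difference was 0.51 (SE 0.25), with an adjusted p of 0.0320 with the pair as block and 1.00 without. In a fit restricted to the arrays of one stage with the pair as block, added after the data had been seen, meis3.S passed at early neurula (0.0187) and missed at mid-gastrula (0.213). The bright meis3.L probe set passed at both stages in that fit, with 0.0234 and 0.0326. The probe set that carries both meis3 symbols (Xl2.452.1.S1_s_at) read 7.07, 6.64 and 7.60 against 8.38, 7.93 and 8.75 at early neurula, a difference of 1.25 (SE 0.27) with adjusted p values of 0.0645, 0.0328 and 5.84e-05 without a block, with the number and with the pair.

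The homeologs of meis3 followed one another. Across the 18 arrays the bright probe set of meis3.L and that of meis3.S correlated at r = 0.985, and across the 9 differences within pairs at r = 0.913. These are descriptions over arrays that share stages and replicate numbers, and cross-hybridization between the copies was not tested. The array annotation lists a probe set for both of them, so some probes can read either copy.

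The gene meis2.L, known in other vertebrates as an RA-responsive gene of limb and hindbrain, had a smaller difference, and its arms were apart at early neurula. At that stage it read 7.31, 6.62 and 7.41 in explants labelled control and 7.63, 7.53 and 7.69 in explants labelled RA-depleted. The arms did not overlap, though the nearest readings, 7.41 and 7.53, were close and the second array labelled control stood lowest. At mid-gastrula the readings were 5.48, 5.33 and 5.29 against 5.43, 5.42 and 5.44, and at early gastrula 3.45, 3.54 and 3.45 against 3.38, 3.56 and 3.44. The arms overlapped at both of these stages. The early neurula difference was 0.50 (SE 0.15) or 1.42-fold, with pairs from 0.28 to 0.91. Its adjusted p was 0.298 without a block, 0.143 with the number as block and 0.0242 with the pair as block. That last call rests on a spread pooled over the stages: the SD of the differences within pairs was 0.35 at early neurula and 0.04 at early gastrula. With the pairs of early neurula alone the adjusted p was 0.234.

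**Figure D2:**
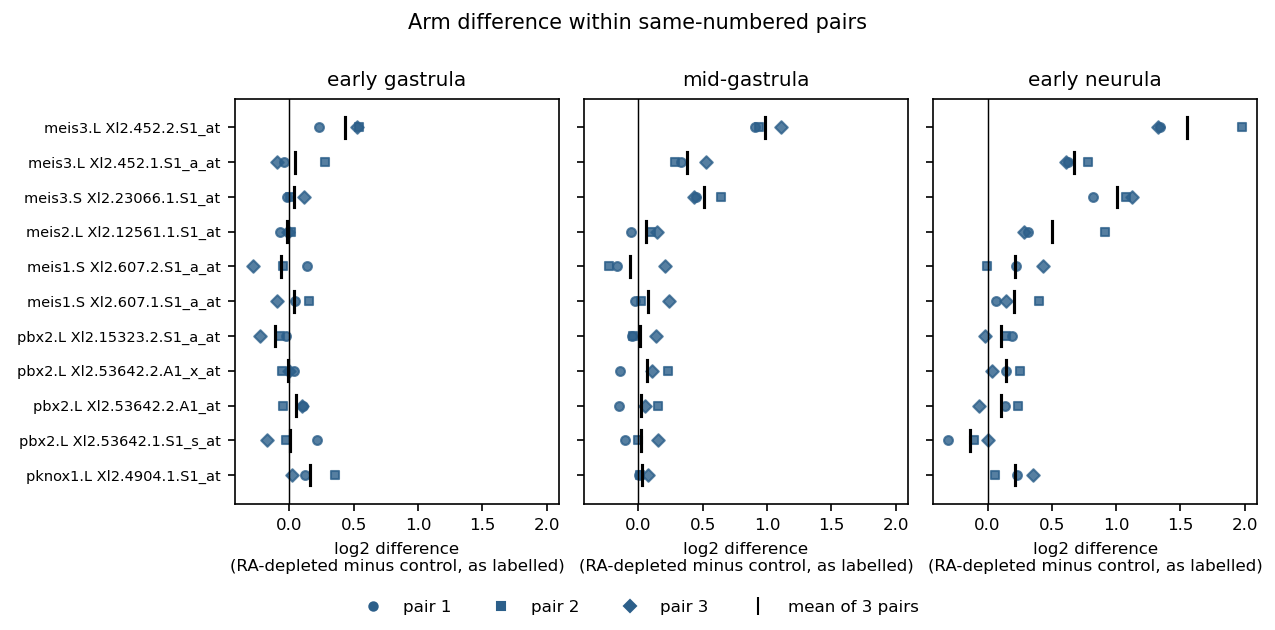
Difference between same-numbered arrays, labelled RA-depleted minus labelled control, in log2 units for the 11 member probe sets at each stage. Shapes are the 3 pairs and the black bar their mean. The meis3 probe sets stand to the right of 0 in every pair at mid-gastrula and early neurula, with the bright meis3.L probe set from 1.33 to 1.98 at early neurula, and the pbx2.L probe sets stay between -0.31 and 0.26.

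No member passed the unblocked limma test of the arm difference at any stage or for the mean of the stages. An unadjusted p under 0.05 was reached by 0, 2 and 4 of the 11 at the successive stages and by 3 for the mean. Of the 32475 probe sets tested, 492, 742 and 1824 reached it at the successive stages and 1494 for the mean. After adjustment that test called 0.00308%, 0.0185% and 0.425% of all probe sets at the successive stages and 0.0862% for their mean. With the replicate number as block 2 of the 11 passed at early neurula and 2 for the mean of the stages, in each case the meis3.L probe sets and in each case higher in explants labelled RA-depleted, beside 0.81% and 0.299% of all probe sets called higher. With the pair as block 2 passed at mid-gastrula (meis3.L and meis3.S), 4 at early neurula (both meis3.L probe sets, meis3.S and meis2.L) and 3 for the mean of the stages (the same without meis2.L). Those counts stand beside 0.108%, 2.47% and 1.31% of all probe sets called higher. Members whose arrays labelled RA-depleted all lay above those labelled control numbered 0, 3 and 4 at the successive stages, and over all probe sets the shares were 2.16%, 3.08% and 4.4%. The median arm difference of the 11 was 0.03, 0.06 and 0.21 at the successive stages, and that of all probe sets at early neurula was -0.01.

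Whether the arm difference itself changed between stages was tested as an interaction. None of the 11 passed from early to mid-gastrula, where limma called 0% of all probe sets. None passed from mid-gastrula to early neurula, where it called 0.0585%. An unadjusted p under 0.05 was reached by 394 of all probe sets in the earlier interval and by 924 in the later. No member reached it in either. With the pair as block the unadjusted p was under 0.05 in both intervals for meis3.S and both meis3.L probe sets. In the later interval it was also under 0.05 for meis2.L. No member passed after adjustment under any block. For the later interval the pair block raised the adjusted calls over all probe sets from 19 to 299. The share of all probe sets with an unadjusted p under 0.05 in that fit is not given here. Whether the members stand out in it therefore cannot be judged. The arm difference at early neurula exceeded that at mid-gastrula by 0.56 (SE 0.48) for the bright meis3.L probe set, by 0.50 (SE 0.35) for meis3.S and by 0.44 (SE 0.21) for meis2.L. For meis3.S the adjusted p of that excess was 0.0576 with the pair as block.

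The DNA-binding partner shared by Meis and Pknox proteins was measured through pbx2.L alone. Its bright probe set (Xl2.15323.2.S1_a_at) read between 9.19 and 9.76 on the 6 early gastrula arrays, between 10.35 and 10.58 at mid-gastrula and between 10.89 and 11.48 at early neurula, with overlap of the arms at every stage. The arms differed by -0.11 and 0.01 (SE 0.18 each) at the gastrula stages and by 0.10 (SE 0.18, 95% interval -0.28 to 0.48) in early neurulae. The 3 other probe sets of pbx2.L, with group means from 4.96 to 7.18, differed by -0.13 to 0.14 at early neurula. None of them was called between the arms, either without a block or with any of the blocks.

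The gene pknox1.L, which encodes another partner of Pbx proteins, had the higher reading under the RA-depleted label in 9 of 9 pairs, by small amounts. At early neurula it read 7.05, 6.83 and 6.43 against 7.28, 6.89 and 6.79, and the arms overlapped. The difference of 0.21 (SE 0.19, 95% interval -0.19 to 0.62) had an adjusted p of 1.00 without a block and of 0.164 with the pair as block. For meis1.S, known in Xenopus from neural crest development, the probe sets differed at early neurula by 0.21 (SE 0.24) on the brighter (Xl2.607.2.S1_a_at) and 0.20 (SE 0.18) on the dimmer (Xl2.607.1.S1_a_at). Neither was called between the arms, either without a block or with any of the blocks. The brighter one read higher under the RA-depleted label in 4 of 9 pairs and the dimmer in 7.

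More members were called between stages than between the arms, as were more of all probe sets. The table's own scale shifts there: the medians of the early gastrula arrays were 5.85 to 5.91, those of the mid-gastrula arrays 5.47 to 5.51 and those of the early neurula arrays 5.48 to 5.51. The median change of all probe sets from early to mid-gastrula was -0.19 in explants labelled control and -0.18 in explants labelled RA-depleted as deposited, -0.01 and -0.02 after a repeated quantile normalization, and 0.20 in both arms with each array centred on its median. Directions below hold under all 3 scalings except where said. Stage also went with time in culture and, at early neurula, with 14 °C in place of 20 °C. Stage and culture cannot be told apart in this design.

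From early to mid-gastrula 7 members rose, 1 fell and 3 were not called in explants labelled control, where 11.2% of all probe sets were called higher and 38.2% lower. In explants labelled RA-depleted 7 rose, none fell without a block and 4 were not called, beside 12.1% higher and 38.1% lower overall. The split over all probe sets depended on scaling, with 3652 higher and 12408 lower as deposited in explants labelled control, 6121 and 7198 after repeated quantile normalization, and 12647 and 5430 after centring. The same members rose in both arms: both meis3.L probe sets, meis3.S, meis2.L and 3 of the 4 pbx2.L probe sets.

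The largest early rise was that of meis3.L, by 2.55 (SE 0.34, adjusted p = 1.60e-05) in explants labelled control and 3.10 (SE 0.34, adjusted p = 2.17e-06) in explants labelled RA-depleted, on the log2 scale. The rise of meis3.S was 1.94 (SE 0.25) and 2.42 (SE 0.25) in that order of arms. In both arms meis2.L rose from readings of 3.38 to 3.56, near the low end of the table (2.49 to 14.59), by 1.88 and 1.97 (SE 0.15 each). The files hold no detection calls, so whether meis2.L was above background at early gastrula was not tested. The bright pbx2.L probe set rose by 0.88 and 1.01 (SE 0.18 each). The dimmer meis3.L probe set rose by 0.38 (SE 0.14, adjusted p = 0.0362) and 0.71 (SE 0.14), and the first of these calls was lost without any one of 5 of the 6 arrays, with an adjusted p of up to 0.121.

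The member that fell was meis1.S, on its dimmer probe set, by 0.50 on the log2 scale (SE 0.18, adjusted p = 0.0359) in explants labelled control. That call was lost after repeated quantile normalization (-0.14, adjusted p = 0.581) and after centring (-0.11, adjusted p = 0.639), and without any one of 4 of the 6 arrays. In explants labelled RA-depleted the dimmer probe set changed by -0.45 (SE 0.18, adjusted p = 0.0534), and it passed with the replicate number as block (adjusted p = 0.0139) and without the third early gastrula array (-0.68, adjusted p = 0.00369). The brighter meis1.S probe set changed by -0.36 in both arms without passing the test. Without that same array it changed by -0.68 in explants labelled RA-depleted and passed (adjusted p = 0.0130). It changed by 0.03 and 0.02 to 0.03 in those arms under the other scalings. The changes of pknox1.L, -0.10 and -0.23, were likewise not called and turned to 0.29 and between 0.15 and 0.16 under the other scalings.

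**Figure D3:**
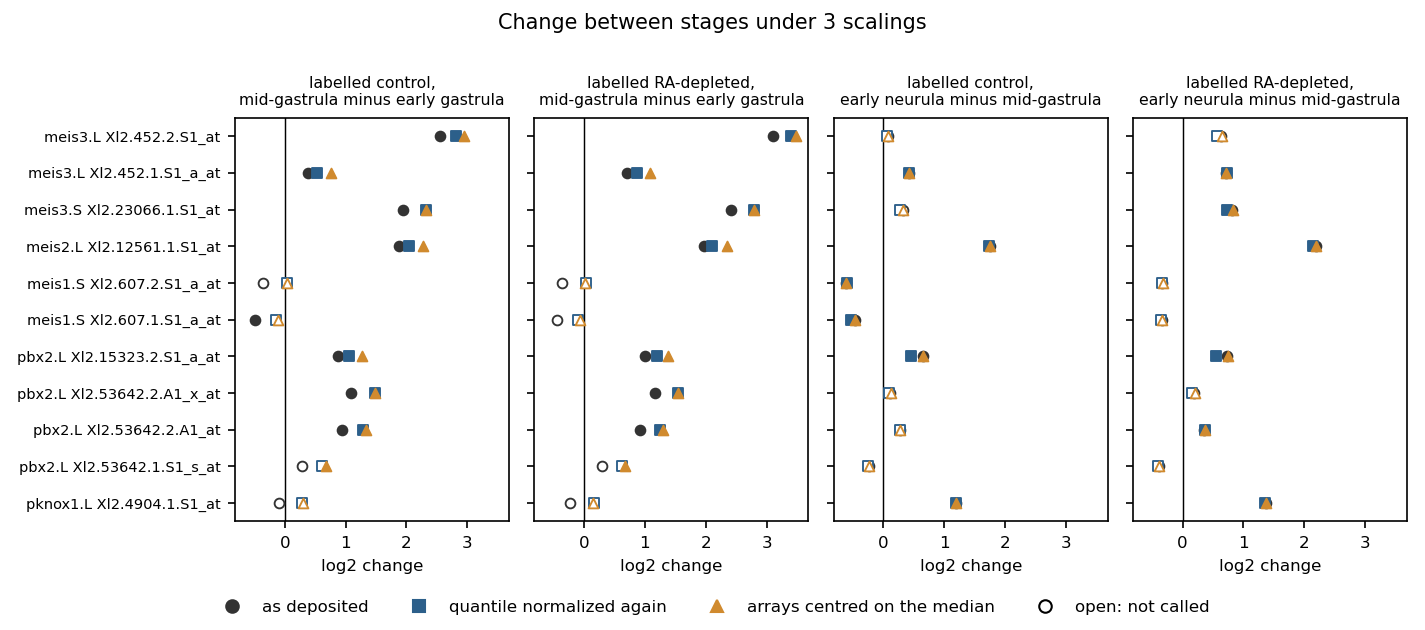
Change between stages within each labelled arm, in log2 units, for the 11 member probe sets under 3 scalings of the arrays. Filled symbols passed the test and open ones did not. The meis2.L probe set rose by 1.73 to 2.35 in every panel and scaling, while the bright meis3.L probe set rose by 2.55 or more early and changed by 0.07, as deposited, from mid-gastrula to early neurula in explants labelled control.

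From mid-gastrula to early neurula 4 members rose, 2 fell and 5 were not called in explants labelled control, where 33.2% of all probe sets were called higher and 26.1% lower. In explants labelled RA-depleted 6 rose, none fell without a block and 5 were not called, beside 32.7% and 26.4%. The rise of meis2.L went on, by 1.75 and 2.19 (SE 0.15 each, adjusted p = 9.13e-08 and 7.57e-09). In contrast to its first interval, meis3.L on its bright probe set changed by 0.07 (SE 0.34) in explants labelled control and by 0.64 (SE 0.34, adjusted p = 0.116) in explants labelled RA-depleted, neither of them called. On the dimmer probe set it rose by 0.41 and 0.71 (SE 0.14 each), the first of them lost without any one of 3 of the 6 arrays. The change of meis3.S was 0.32 (SE 0.25, adjusted p = 0.287) in explants labelled control and a rise of 0.81 (SE 0.25, adjusted p = 0.0108) in explants labelled RA-depleted. The latter was lost without the third early neurula array labelled RA-depleted, its highest reading (0.55, adjusted p = 0.0649). That these changes differ between the arms was not shown, since the interaction reported above passed for none of them.

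The remaining calls of that interval were those of pknox1.L, pbx2.L and meis1.S. The first rose by 1.19 and 1.37 (SE 0.19 each) after no called change in the first interval. The bright pbx2.L probe set rose by 0.65 and 0.73 (SE 0.18 each), and of its other probe sets 1 rose in explants labelled RA-depleted (Xl2.53642.2.A1_at, 0.36, SE 0.13), a call lost without any one of 3 of the 6 arrays. Both meis1.S probe sets fell in explants labelled control, by 0.61 (SE 0.24, adjusted p = 0.0424) and 0.47 (SE 0.18, adjusted p = 0.0402) on the log2 scale. The first of these calls was lost without any one of 5 of the 6 arrays (adjusted p up to 0.147) and the second without any one of 4 (up to 0.151). In explants labelled RA-depleted both changes, -0.33 and -0.34, missed the test. With the replicate number as block the dimmer probe set passed there (adjusted p = 0.0480), as did a fall of a pbx2.L probe set (Xl2.53642.1.S1_s_at, -0.39, adjusted p = 0.0223), so that 8 members were called in place of 6. In explants labelled control that block added a rise of the pbx2.L probe set Xl2.53642.2.A1_at (0.28, adjusted p = 0.0485).

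Set in order, the group means of the bright meis3.L probe set ran from 4.58 ± 0.35 and 5.01 ± 0.50 at early gastrula (labelled control, then labelled RA-depleted), through 7.13 ± 0.33 and 7.20 ± 0.71 in explants labelled control at mid-gastrula and early neurula, to 8.11 ± 0.29 and 8.75 ± 0.38 in explants labelled RA-depleted at those stages. The early gastrula neighbours overlapped, and so did the explants labelled control at mid-gastrula and early neurula. Those labelled RA-depleted overlapped narrowly at these stages, with a highest mid-gastrula reading of 8.42 and a lowest early neurula reading of 8.40. For meis3.S the order was 5.89 ± 0.32 and 5.92 ± 0.35 at early gastrula, 7.83 ± 0.19 (labelled control, mid-gastrula), 8.14 ± 0.42 (labelled control, early neurula), 8.34 ± 0.11 (labelled RA-depleted, mid-gastrula) and 9.15 ± 0.46 (labelled RA-depleted, early neurula). The early neurula arrays labelled control overlapped with both mid-gastrula groups. For meis2.L the order was by stage: 3.46 ± 0.09 and 3.48 ± 0.05, 5.37 ± 0.10 and 5.43 ± 0.01, then 7.11 ± 0.43 and 7.62 ± 0.08, with neighbours of one stage overlapping at early and mid-gastrula.

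The genes most like the meis3 copies over the 18 arrays were taken from 7011 genes with a mean log2 value of at least 6, by Pearson's r. For meis3.L they were foxc2.S (0.96), a forkhead factor of mesoderm, ada.S (0.95), adenosine deaminase, ripply2.2.S (0.94), a repressor of somite segmentation, XB5894820.L (0.94) and zfand5.S (0.94). For meis3.S they were ada.S, zfand5.S and ripply2.2.S (0.97 each), impact.L (0.97) and cacybp.S (0.96). The highest 5% of candidates began at r = 0.81 for meis3.L and 0.86 for meis3.S. Across the 9 differences within pairs these genes gave r = 0.59 (ada.S) to 0.88 (zfand5.S) with meis3.L. With meis3.S they gave 0.70 (zfand5.S) to 0.86 (cacybp.S). The values of ripply2.2.S were 0.87 and 0.73. It alone among these genes was called between the arms at early neurula (0.91 higher under the RA-depleted label, adjusted p = 0.0236, no block). Likeness was taken over the same arrays, so that call is not separate evidence.

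For meis2.L the 5 most like genes all had r = 0.99: fgfrl1.L, a receptor-like gene of the FGF family, sec13.S, a coat protein gene of the secretory pathway, fzd2.S, a Wnt receptor gene, xfrp and ssr1.L, a gene of the protein translocon. The highest 5% of candidates began at 0.96 there. Most like the bright pbx2.L probe set was prpf8.S (0.98), a core splicing factor gene, most like pknox1.L was trap1.L (0.98), a mitochondrial chaperone gene, and most like meis1.S was pnpla3.L (0.95), a lipase gene. These likenesses are descriptions over arrays that share stage and replicate number, and none of the 5 genes most like meis2.L was called between the arms at early neurula.

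The Hox genes with which these cofactors act were read from the same arrays. Of the Hox paralogs 1 to 5, the anterior group, 8 genes had a probe set, and 7 of them were higher in explants labelled RA-depleted at early neurula, with a median difference of 0.66 beside 0.01 over all genes. Without a block 1 of the 8 was called, hoxa3.S, by 0.86 (SE 0.15, adjusted p = 0.0167). That call was lost without the first array labelled RA-depleted (adjusted p = 0.0544) or the third labelled control (0.0538), and with the arrays of the stage alone (0.734). With the number as block 3 were called and with the pair as block 5 (hoxb2.S 1.22, hoxc5.L 0.89, hoxa3.S and hoxa2.L 0.74 among them), all higher. At mid-gastrula 8 of the 8 were higher, with a median of 0.20, and the 1 called, with the pair as block, was hoxc5.L (0.59, adjusted p = 0.0308). Of the 17 genes among paralogs 6 to 13 none was called at early neurula by any of these fits, and their median at early neurula was -0.08. At mid-gastrula 13 of the 17 were higher, with a median of 0.16, and the 1 called, with the pair as block, was hoxc6.S (1.26, adjusted p = 0.0326). Both Hox groups rose from mid-gastrula to early neurula, 7 of 8 and 17 of 17 in explants labelled control and 7 of 8 and 15 of 17 in explants labelled RA-depleted. At early gastrula no gene of either group lay above the array median on all 3 arrays of a group. At mid-gastrula 0 of the 8 anterior genes did so in explants labelled control and 1 in explants labelled RA-depleted. For paralogs 6 to 13 these counts were 1 and 2 of the 17.

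The other TALE genes, Irx, Tgif and Mkx, are of the same homeodomain class but are not Hox cofactors of this kind. None of their 10 genes was called between the arms at early neurula without a block, and with the pair as block irx3.L was higher (0.74) and tgif2.S lower (-0.36). Their median difference was 0.09. From mid-gastrula to early neurula 8 of the 10 fell in explants labelled control, while 7 fell and 1 rose in the other arm, with median changes of -0.90 and -0.88. Among them tgif1.S and tgif2.S, which encode repressors, fell by 1.23 and 1.26 on the log2 scale in explants labelled control.

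**Figure D4:**
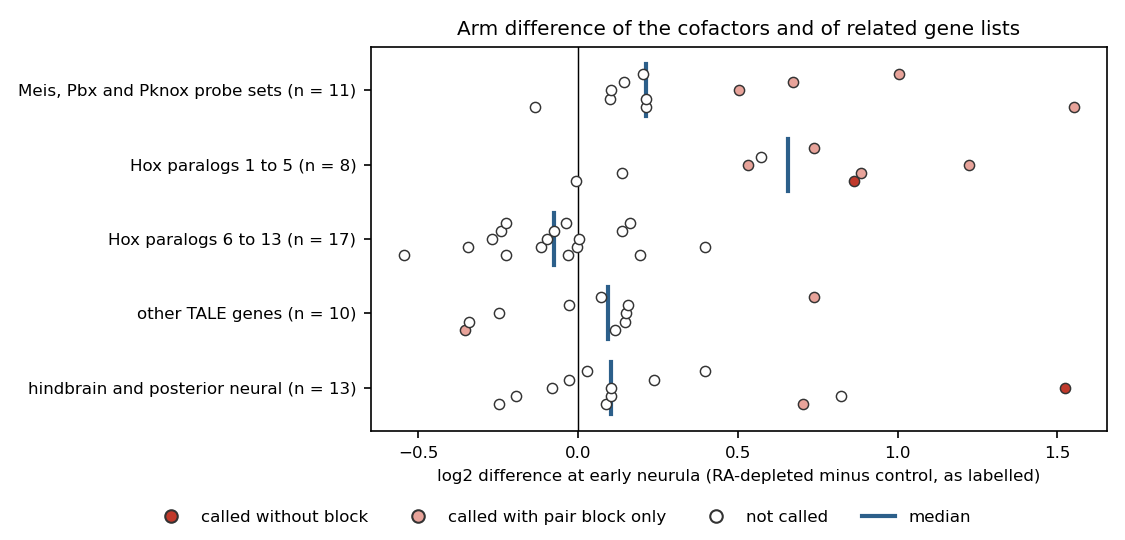
Arm difference at early neurula, labelled RA-depleted minus labelled control, in log2 units, for the 11 member probe sets and for the genes of 4 related lists (1 probe set per gene). Dark points passed without a block, light points with the pair as block, and the blue bar is the list's median. The median of the Hox paralogs 1 to 5 lies at 0.66, that of the members at 0.21 and that of the Hox paralogs 6 to 13 at -0.08.

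In Xenopus, meis3 acts in the hindbrain, so the regulators of hindbrain and posterior neural tissue were listed beside it. Of 13 genes 1 was called at early neurula without a block, gbx2.1.S, a homeobox gene at the border of midbrain and hindbrain, higher by 1.52 (SE 0.30, adjusted p = 0.0420). This call was lost without the first (adjusted p = 0.126) or the second (0.207) array labelled control, and with the arrays of the stage alone (0.784). In explants labelled RA-depleted 9 of the 13 were higher at early gastrula (median 0.23) and 9 at early neurula (median 0.10). At mid-gastrula 12 of the 13 were higher, with a median of 0.32, and with the pair as block fgf3.L was called (1.02, adjusted p = 0.0141). Of all probe sets 49.8%, 50.5% and 48.1% were higher at the successive stages. The egr2.L gene, a hindbrain segment marker, differed by 0.03 (SE 0.09) at early neurula. Of 17 genes known to respond to RA 3 were called higher (dhrs3.L, hoxa3.S and znf703.S) and 1 lower (cyp26a1.S) at early neurula, with a median of 0.09. The call of znf703.S was lost without the second array labelled control (adjusted p = 0.0541) and with the arrays of the stage alone (0.309, or 0.0663 with the pair as block in that fit).

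Markers of tissues the explants could hold were read at early neurula, where the meis3 difference was largest. Of 20 neural markers 7 were higher in explants labelled RA-depleted, with a median of -0.09, and 1 was called without a block, prph.L (1.99, SE 0.26), a neuronal intermediate filament gene. The mean level of the neural list ran from 5.88 to 6.18 in explants labelled control and from 5.99 to 6.13 in explants labelled RA-depleted, and 8 and 9 of its genes lay above the array median on all 3 arrays. Of 17 markers of the pronephric field and lateral mesoderm 1 was called, lhx1.L (2.0, SE 0.27), which is also the 1 called among 16 axial markers, and the medians were 0.03 and -0.08. Here 9 of the 17 genes of lateral mesoderm lay above the array median on all 3 arrays in each arm. In each arm 14 of 16 paraxial, 12 of 17 endoderm and 4 of 12 blood markers did so. In explants labelled control, then RA-depleted, 12 and 13 of 17 neural crest markers did. The axial counts were 10 and 11 of 16, and the epidermis counts 2 and 4 of 16. None was called among 16 paraxial (median 0.09), 17 neural crest (-0.06), 12 blood (-0.02), 17 endoderm (-0.09) or 16 epidermis markers (0.01). These counts are without a block. With the pair as block 4 paraxial markers were called higher, among them mespa.L (1.21), and 3 lateral ones higher. In that fit 3 endoderm markers were called higher and 2 lower, 2 neural ones higher and 1 lower, and 1 axial one higher and 2 lower. With the arrays of early neurula alone the unblocked calls of prph.L (adjusted p = 0.134) and lhx1.L (0.508) were lost. At mid-gastrula 15 of the 16 paraxial markers were higher in explants labelled RA-depleted (median 0.23), as were 11 of 16 axial (0.29), 12 of 20 neural (0.02) and 3 of 17 endoderm markers (-0.21). At early gastrula 2 of 17 endoderm (-0.24), 5 of 17 lateral (-0.05) and 5 of 12 blood markers (-0.05) were higher. So were 13 of 16 epidermis (0.07), 14 of 20 neural (0.07), 10 of 16 axial (0.08), 10 of 17 neural crest (0.07) and 8 of 16 paraxial markers (0.02). No marker was called at early gastrula, without a block or with the number or the pair. Of all probe sets 49.8% were higher at early gastrula and 50.5% at mid-gastrula. The part of any of these tissues in the meis3 difference was not tested, and in whole explants more cells of a type and more RNA per cell cannot be told apart.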

How the data were processed

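Per the submitters' processing notes, the authors made the deposited log2 intensities with RMA in the affy package. Versions, and which arrays were normalized together, are not given in the sources used here. Symbols came from the platform annotation, and all 11 members matched the reference gene table by Entrez identifier. The 160 control probe sets were left out.

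The 6 group means were fitted over the 18 arrays in R 4.3.3 by lmFit and eBayes of limma 3.58.1. Calls required a p under 0.05 after Benjamini-Hochberg adjustment over the 32475 probe sets. Each SE comes from that moderated fit, and each SD from the 3 arrays of a group. Nothing says that replicates came from separate clutches, so p-values may measure only technical spread.

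Replicate numbers were checked for pairing. After removal of group means, the arms' arrays of one stage and number had correlations across probe sets of 0.64 to 0.84 (9 pairs). Between numbers they were -0.48 to -0.11, values that the removal itself lowers. Arrays of one number from different stages gave 0.36 to 0.69 (36 comparisons). The numbers thus pair the arms and also link the stages. Whether the differences within the 9 pairs are independent between stages was not tested. The number or the pair within a stage was fitted as a block beside the design without one. Other alternatives were a random block, the arrays of one stage alone, a brightness filter (3 or more arrays at a log2 of 6 or more, passed by 18223 probe sets and 8 of 11 members), repeated quantile normalization, median centring, trended robust variance, omission of 2331 probe sets that can match several transcripts, and omission of each array. The fits were tested on simulated data.

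Members and gene lists were chosen with earlier results of these data known, and their directions are not independent evidence. Array values are given for meis2.L, meis3.L, meis3.S and members called between the arms, other members by range, and up to 4 called genes per list. For a gene with several probe sets the one with the highest mean stands for it. Genes given beyond that rule (egr2.L, and the early neurula readings of pknox1.L) were chosen after their values were seen. Plots used Python 3.11.15 and matplotlib 3.10.9.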

Additional observations from a re-analysis of the deposited data

How the results depend on the processing

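The alternatives changed counts of calls, both among the members and over all probe sets. At early neurula 0 of the 11 members passed without a block, 2 with the replicate number and 4 with the pair as block. A block left the differences themselves unchanged. The counts that follow are over all probe sets. Modelling the replicate number as a block, the pair within a stage as a block, or the pair as a random block raised the calls between the arms from 1 to 2, 12 and 19 at early gastrula, from 6 to 12, 61 and 48 at mid-gastrula, from 138 to 370, 1405 and 1278 at early neurula, from 28 to 171, 924 and 730 for the mean of the stages, and from 19 to 53, 299 and 254 for the change from mid-gastrula to early neurula. The arrays of one stage alone gave 1, 3 and 6 calls at the successive stages, and the pair block in that fit, added after the data had been seen, gave 5, 7 and 193. The brightness filter gave 8 calls for that change between stages and 10613, of 16060, from early to mid-gastrula in explants labelled control, where fewer probe sets are tested. Leaving out 1 array gave 1 to 2 calls at early gastrula (2 without the third labelled RA-depleted), 2 to 5 at mid-gastrula, against 6 with all arrays, 99 to 218 at early neurula (218 without the third labelled control), 16 to 51 for the mean and 7 to 35 for the change between the later stages.

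Of the members' single values, early gastrula arm differences near 0 changed sign when 1 array was left out: meis2.L ranged from -0.070 to 0.017, the dimmer meis3.L probe set from -0.044 to 0.10 and meis3.S from -0.13 to 0.23. From early to mid-gastrula pknox1.L turned from -0.10 to 0.29 in explants labelled control and from -0.23 to 0.16 and 0.15 in those labelled RA-depleted under repeated quantile normalization and centring, with -0.23 to 0.028 on leaving out an array labelled control. The brighter meis1.S probe set turned to 0.030 and 0.032 in explants labelled control and to 0.028 and 0.023 in those labelled RA-depleted under the same scalings. From mid-gastrula to early neurula in explants labelled control, meis3.L ranged from -0.24 to 0.46 on leaving out 1 array, and a pbx2.L probe set (Xl2.53642.1.S1_s_at) from -0.55 to 0.00041. The cause of each was not tested. At early neurula the arm differences of meis3.L, meis3.S and meis2.L ranged from 1.16 to 1.86, 0.75 to 1.21 and 0.26 to 0.65 over the alternatives. Their sign is no test of robustness. A block leaves a difference unchanged, and leaving out 1 array cannot turn the sign where the arms do not overlap. With 3 arrays per group, and no detection calls, small changes of dim probe sets such as meis2.L at early gastrula were not resolved.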
